A study of Homo sapiens with 6 samples.

Results

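A set of 45 genes that encode ribosome biogenesis and nucleolar factors was followed in bronchial epithelial cells given a herbal preparation before bacterial infection. The genes were taken by symbol from a fixed list, through the Ensembl identifier of each row, and all 45 were found among the 60892 rows of the count table. The cells were BEAS-2B, a human bronchial epithelial line that was immortalised and carries the genotype label WT, and their RNA was sequenced. The 3 control libraries came from cells kept in medium for 24 hours, and the 3 ZQ libraries from cells kept for the same time with ZQ (Zhenqi Granules, a herbal preparation) at 10 mg/mL. Both groups then received methicillin-resistant Staphylococcus aureus (MRSA) at 1 bacterium per cell and were collected 2 hours later. No uninfected group was analysed here, so the comparison is ZQ against medium in infected cells of a single line. The cells grew in serum-containing DMEM with antibiotics. The labels do not tell whether each library had its own culture, and the spread that the p-values rest on may therefore be technical.

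Ribosomes are built in the nucleolus, where RNA polymerase I transcribes a long precursor of the ribosomal RNAs. Small nucleolar ribonucleoproteins (snoRNPs) modify that precursor: box C/D particles methylate riboses and box H/ACA particles convert uridines to pseudouridines. The small subunit processome and a separate set of assembly factors then fold, cleave and export the precursors of the 40S and 60S subunits. Most of these proteins are needed by every dividing cell, and their genes are commonly regulated with growth signals.

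The libraries of the groups differed in more than the treatment. The depth was 11665967 to 14699677 counts in a control library and 2064566 to 2451746 in a ZQ library. Genes of the mitochondrial genome took 7.04% to 10.1% of control counts and 38.4% to 40.7% of ZQ counts. Variation between replicates beyond counting error, as edgeR's biological coefficient, came to 0.265 for control and 0.522 for ZQ. The main test used a single estimate of spread for both groups. Olfactory receptor genes, which bronchial cells are not known to use, held 0.167 counts per kb of exon over the control libraries and 1.50 over the ZQ libraries. Of 7 markers of the line, KRT7, KRT8, KRT18 and VIM carried nearly all of the summed CPM. The sum was 2309 to 3706 CPM in control and 3266 to 3457 CPM in ZQ libraries, but its parts moved in opposite directions. Mean KRT8 was 1591 CPM in control and 674 CPM in ZQ libraries, and mean KRT18 was 690 and 684 CPM. Mean KRT7 was 154 and 471 CPM, and mean VIM 460 and 1505 CPM. EPCAM, CDH1 and KRT19 were at most 5.87 CPM in any library. The 6 leukocyte markers summed to 0 to 0.745 CPM in control and 5.98 to 19.3 CPM in ZQ libraries, with CD68 and LYZ at 0 in all 6 libraries. The 5 fibroblast or endothelial markers summed to 303 to 587 CPM in control and 115 to 144 CPM in ZQ libraries. Most of that sum was the fibroblast gene COL1A1, at 293 to 576 CPM in control and 91.0 to 124 CPM in ZQ libraries, whereas the endothelial genes moved the other way. PECAM1 was at 0 to 0.135 CPM in control and 3.32 to 7.61 CPM in ZQ libraries, and VWF at 0.575 to 0.880 and 8.69 to 12.7 CPM. The part of these differences in the results below was not tested.

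Of the 45 members, 43 had enough counts to be tested, and they moved in both directions. With ZQ, 12 were lower, 8 were higher and 23 did not pass the test. The test was edgeR's quasi-likelihood test with Benjamini-Hochberg adjustment over 12994 genes at 0.05, on counts scaled by trimmed mean of M values (TMM). Calls were frequent everywhere: 38.3% of all tested genes passed, 19.0% as lower and 19.3% as higher, against 46.5% of the tested members. The median log2 change of the members was -0.24, and that of all tested genes was 0.03. In CPM (a gene's counts scaled to a fixed library size) after TMM scaling, all 3 ZQ libraries lay below all 3 control libraries for 14 tested members and above them for 10, with overlap in 19. Over all tested genes 28.0% lay wholly below and 25.4% wholly above. The 12 lower calls among 43 tested members were a larger share than the 19.0% of all genes, and the 8 higher calls were near the 19.3%. The shares that lay wholly below or above stood near the background. The difference in lower calls was not tested. In bulk RNA, fewer cells with a transcript and less of it per cell cannot be told apart.

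The direction of many members depended on how composition was handled. ZQ libraries gave higher values for transcripts rich in GC and lower values for transcripts poor in GC, across all genes, and an alternative fit therefore took offsets per library for these properties, GC content and transcript length. With these offsets 5 members were lower (HEATR1, TSR1, UTP4, NOC2L and RRP1) and 7 higher (NOP10, BOP1, LYAR, NPM1, DDX21, DDX18 and NOC3L), beside 13.5% lower and 19.9% higher of all genes. The median log2 change of the members was then 0.26, and that of all genes 0.15. In all, 6 of the 43 tested members were called the same way in both fits: HEATR1, TSR1 and UTP4 as lower, and NOP10, BOP1 and LYAR as higher. Of all 12994 tested genes, 1276 were called lower and 1711 higher in both fits. With the offsets 11 of the 43 tested members had the opposite sign, beside 2881 of the 12994 tested genes. Scaling moved the counts as well. Upper-quartile scaling, which put the all-gene median at 0.48, gave 5 lower and 13 higher members, beside 12.4% and 29.0% of all genes. Library totals, which put it at -0.37, gave 18 lower and 4 higher, beside 27.6% and 13.5%. Relative to the median of all genes, the members' median was -0.28 with TMM, -0.27 with upper-quartile scaling and -0.28 with library totals. Scaling moves all genes by nearly the same amount, so these 3 values had to be close and do not show a stable shift. The relative median was 0.11 with the offsets, -0.04 with a mean of at least 5 CPM required and -2.22 with no low-count filter. It was -0.40 without ZQ replicate 1 and -0.08 without control replicate 2. Leaving out control replicate 1 gave 5 lower and 6 higher members, and leaving out control replicate 3 gave 6 and 6. Leaving out ZQ replicate 1 gave 13 and 4, and leaving out ZQ replicate 3 gave 13 and 5, the latter among 44 tested members. The tested genes changed as well, to 11035 without control replicate 1 or 3, 14666 without ZQ replicate 1 and 14628 without ZQ replicate 3. The number of all genes called also moved in such fits, and its share by direction is not given here. These counts are therefore no result about the members.

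**Figure D1:**
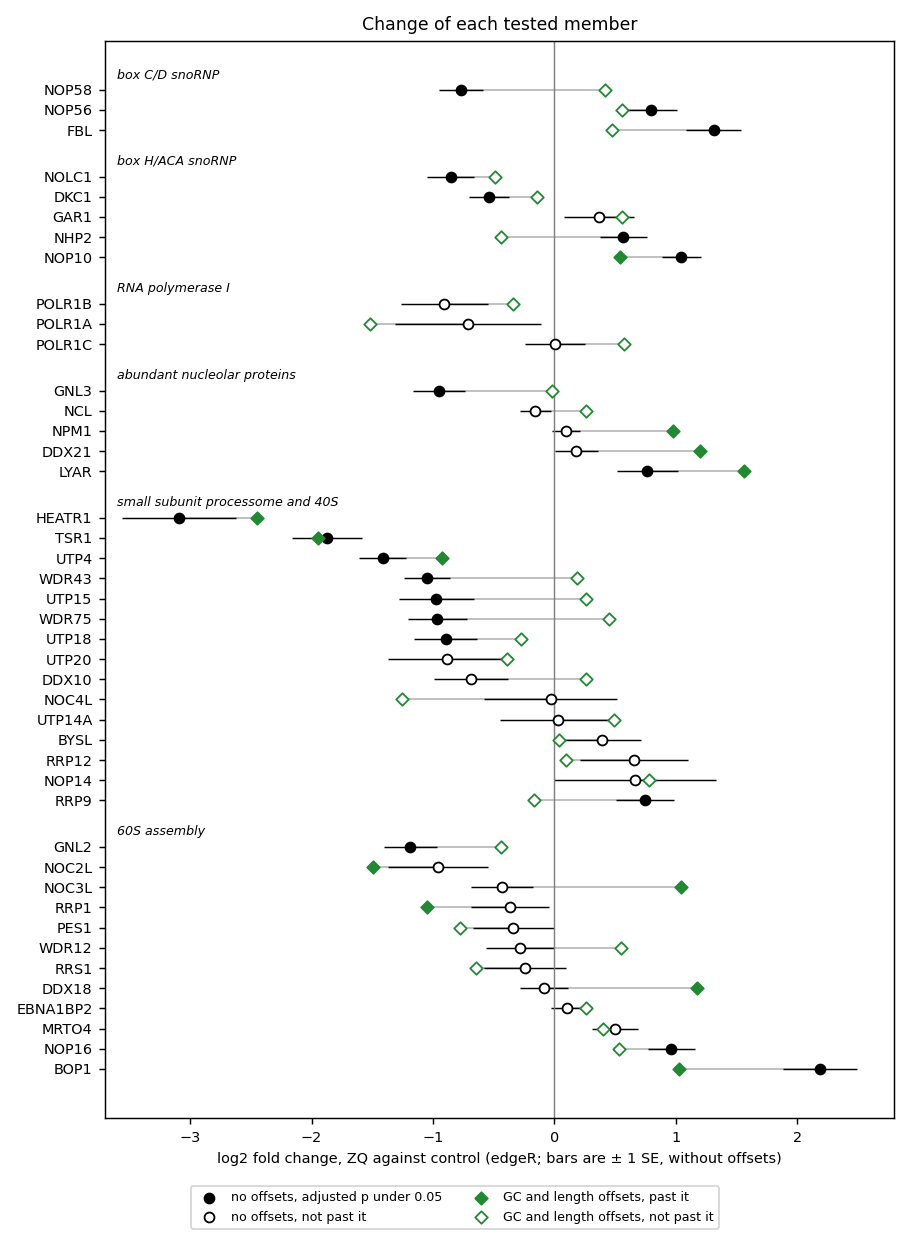
Log2 fold change of ZQ against control for each of the 43 tested members, grouped by role, with the edgeR estimate (black, bars of 1 SE) and the estimate under offsets for GC and length (green diamonds); filled symbols passed 0.05 after adjustment. HEATR1, TSR1 and UTP4 lie left of 0 and NOP10, BOP1 and LYAR right of 0 with filled symbols in both, while WDR43, UTP15, WDR75 and NOP58 cross from left to right and NHP2 and RRP9 from right to left.

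The core proteins of the box C/D snoRNP did not move together. NOP56, one of its paired scaffold proteins, was measured at 116, 131 and 94.6 CPM in control libraries 1 to 3 and at 206, 149 and 239 CPM in ZQ libraries 1 to 3. NOP58, the other scaffold, was at 266, 204 and 280 CPM in control and 164, 147 and 128 CPM in ZQ libraries. FBL (fibrillarin), the methyltransferase of the particle, was at 74.3, 89.1 and 64.5 CPM in control and 178, 240.5 and 146 CPM in ZQ libraries. The groups did not overlap for any of the 3 genes. NOP56 rose with a log2 fold change of 0.80 ± 0.22 (SE, n = 3 a group; edgeR quasi-likelihood test, Benjamini-Hochberg adjusted p = 0.0150). FBL rose 2.48-fold, which is 1.31 ± 0.23 on the log2 scale (SE; edgeR, adjusted p = 0.00138). NOP58 fell by 0.77 ± 0.18 on the log2 scale (SE; edgeR adjusted p = 0.00737). Under the offsets no call of the box C/D proteins was left, although all 3 were higher at an unadjusted p under 0.05, and the log2 change was 0.56 for NOP56, 0.48 for FBL and 0.42 for NOP58, which turned positive. The call of NOP56 also ended without ZQ replicate 1 (0.67) or ZQ replicate 3 (0.55), and that of NOP58 without control replicate 1 (-0.58) or control replicate 3 (-0.53). DESeq2 called 1 of the 3 genes lower and 2 higher, whereas limma-voom called 0 lower and 2 higher, so NOP58 was not called there.

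The box H/ACA particle split in the same manner. DKC1 (dyskerin), its pseudouridine synthase, was measured at 300.1, 232 and 302 CPM in control and 193, 207 and 174 CPM in ZQ libraries. NOP10, the smallest core protein, was at 204, 165 and 237 CPM in control and 405, 399.5 and 447 CPM in ZQ libraries, without overlap. Its gene lies at chr15:34341713-34343177 on the minus strand (GENCODE release 29, GRCh38), and its longest transcript of 554 bases is the shortest among the tested members. NOP10 rose 2.06-fold, a log2 change of 1.05 ± 0.16 (SE, n = 3 a group; edgeR quasi-likelihood adjusted p = 0.000766), and kept its call in all 17 alternative fits, with a log2 change of 0.54 under the offsets. DKC1 fell by 0.54 ± 0.16 on the log2 scale (SE; edgeR adjusted p = 0.0253).

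NHP2, a further core protein, was at 73.1, 80.1 and 81.3 CPM in control and 118, 126 and 103 CPM in ZQ libraries. It rose with a log2 change of 0.57 ± 0.19 (SE, n = 3 a group; edgeR adjusted p = 0.0396). GAR1, which binds the synthase in the finished particle, was at 33.0, 31.5 and 30.3 CPM in control and 39.7, 46.0 and 36.5 CPM in ZQ libraries. Its groups did not overlap, and its change of 0.37 ± 0.29 (log2, SE) did not pass, with an edgeR adjusted p of 0.346. NOLC1, a nucleolar phosphoprotein that accompanies snoRNPs, was at 162, 208 and 161 CPM in control and 112, 87.7 and 93.4 CPM in ZQ libraries. NOLC1 fell by 0.85 ± 0.19 on the log2 scale (SE, n = 3 a group; edgeR adjusted p = 0.00608). With the offsets the log2 change was -0.14 for DKC1, -0.44 for NHP2 and -0.49 for NOLC1, none of them past the test. Without single libraries the call of DKC1 ended when control replicate 1 (-0.34) or 3 (-0.32) was left out, and that of NOLC1 without control replicate 1 (-0.75). That of NHP2 ended without control replicate 1 (0.68) or ZQ replicates 1 (0.46), 2 (0.40) or 3 (0.55). Of the 5 box H/ACA members, with NOLC1 counted among them, edgeR called 2 lower and 2 higher, beside 19.0% lower and 19.3% higher of all tested genes. DESeq2 called 1 lower and 2 higher, and limma-voom 1 lower and 1 higher. Exons of NHP2 share 414 bases with RMND5B on the opposite strand, and the strand setting of the counting is not given in the sources used here.

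Because partners of a particle were counted in the same libraries, their ratio needs no scaling between libraries. The log2 ratio of NOP56 to NOP58 counts was -1.19, -0.63 and -1.56 in control and 0.33, 0.03 and 0.90 in ZQ libraries, so NOP58 had more counts in every control library and fewer in every ZQ library. The log2 ratio of DKC1 to NOP10 was 0.56, 0.49 and 0.35 in control and -1.07, -0.95 and -1.37 in ZQ libraries. Both ratios separated the groups without overlap, with mean differences of 1.55 and -1.59 (ZQ minus control). That separation had to follow, since each partner alone lay apart between the groups and in opposite directions, so it adds no support. How often other pairs of genes separate was not computed. A ratio shows unequal change of the partners and not which of them changed. The partners also differ in composition, since the GC content is 56.0% for NOP56 and 41.25% for NOP58, and the transcript length is 3079 bases for DKC1 and 554 for NOP10. With the offsets the fitted differences were 0.14 for NOP56 to NOP58 and -0.68 for DKC1 to NOP10.

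**Figure D2:**
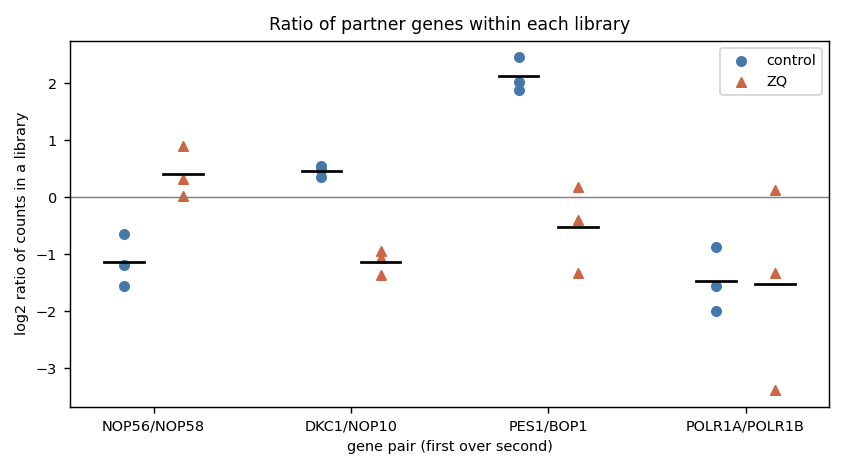
Log2 ratio of the counts of partner proteins in each library, for 4 pairs from the same particle or enzyme; points are single libraries and bars the group means. The ratios NOP56/NOP58, DKC1/NOP10 and PES1/BOP1 do not overlap between control and ZQ libraries, whereas POLR1A/POLR1B does.

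RNA polymerase I gave no call in edgeR, where POLR1B had an unadjusted p under 0.05, and no call in limma-voom, while DESeq2 called POLR1B lower. POLR1A, its largest subunit, was measured at 13.5, 23.9 and 12.9 CPM in control and 11.4, 16.3 and 2.76 CPM in ZQ libraries, with overlap. POLR1B, the second-largest subunit, was at 53.8, 43.8 and 37.7 CPM in control and 28.8, 14.9 and 28.7 CPM in ZQ libraries, without overlap. POLR1C, which RNA polymerase III also uses, was at 67.8, 60.9 and 79.8 CPM in control and 71.2, 55.1 and 82.9 CPM in ZQ libraries. The log2 changes were -0.71 ± 0.60 for POLR1A, -0.91 ± 0.36 for POLR1B and 0.00 ± 0.25 for POLR1C (SE, n = 3 a group). Their edgeR adjusted p-values were 0.375, 0.0693 and 0.994. The change of POLR1B passed without ZQ replicate 1 (-1.15) or ZQ replicate 3 (-1.15). The log2 ratio of POLR1A to POLR1B averaged -1.47 ± 0.56 (SD, n = 3) for control and -1.53 ± 1.76 (SD, n = 3) for ZQ, with overlap. With the offsets the log2 changes were -1.52 for POLR1A, -0.34 for POLR1B and 0.57 for POLR1C, none past the test (1 lower and 1 higher at an unadjusted p under 0.05), and the fitted difference of that ratio was -1.17 against 0.19 without them.

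NPM1 and NCL, abundant proteins of the nucleolus, were close to their control levels by TMM. NPM1 (nucleophosmin) had the highest member level per length in control, 483 CPM per kb of exon, and 517 with ZQ, where NOP10 was higher at 753 (365 in control). NPM1 was measured at 1987, 1600.5 and 1964 CPM in control and 2074, 1942 and 1918 CPM in ZQ libraries. NCL (nucleolin) was at 837, 929 and 772 CPM in control and 849, 729 and 698 CPM in ZQ libraries. The groups overlapped for both, and the log2 changes were 0.10 ± 0.11 for NPM1 and -0.16 ± 0.13 for NCL (SE, n = 3 a group; edgeR adjusted p = 0.530 and 0.358). That statement rests on the scaling, since NPM1 was called lower with library totals (-0.30) and higher with upper-quartile scaling (0.54) and with the offsets (0.97). NCL was called lower with library totals (-0.56). Another 49 rows are NPM1 pseudogenes, which held 1072 to 1329 counts in control and 126 to 130 in ZQ libraries, so its count is uncertain where reads could be split.

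LYAR, a nucleolar zinc-finger protein, was at 57.7, 41.4 and 49.2 CPM in control and 91.8, 67.1 and 93.4 CPM in ZQ libraries, without overlap. It rose with a log2 change of 0.77 ± 0.25 (SE, n = 3 a group; edgeR adjusted p = 0.0350), and with the offsets by 1.56. GNL3 (nucleostemin), a nucleolar GTPase linked to proliferation, was at 249.8, 223 and 267 CPM in control and 169, 97.7 and 117 CPM in ZQ libraries. GNL3 fell by 0.95 ± 0.21 on the log2 scale (SE, n = 3 a group; edgeR adjusted p = 0.00591), but its change was -0.02 with the offsets. DDX21, an RNA helicase of the nucleolus, overlapped between groups at a log2 change of 0.18 ± 0.18 and passed as higher with the offsets (1.20). The call of LYAR ended without control replicates 2 (0.76) or 3 (0.91) or ZQ replicates 1 (0.60) or 3 (0.59), and that of GNL3 without control replicates 1 (-0.79) or 3 (-0.73). LYAR was also not called by limma-voom with group weights.

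**Figure D3:**
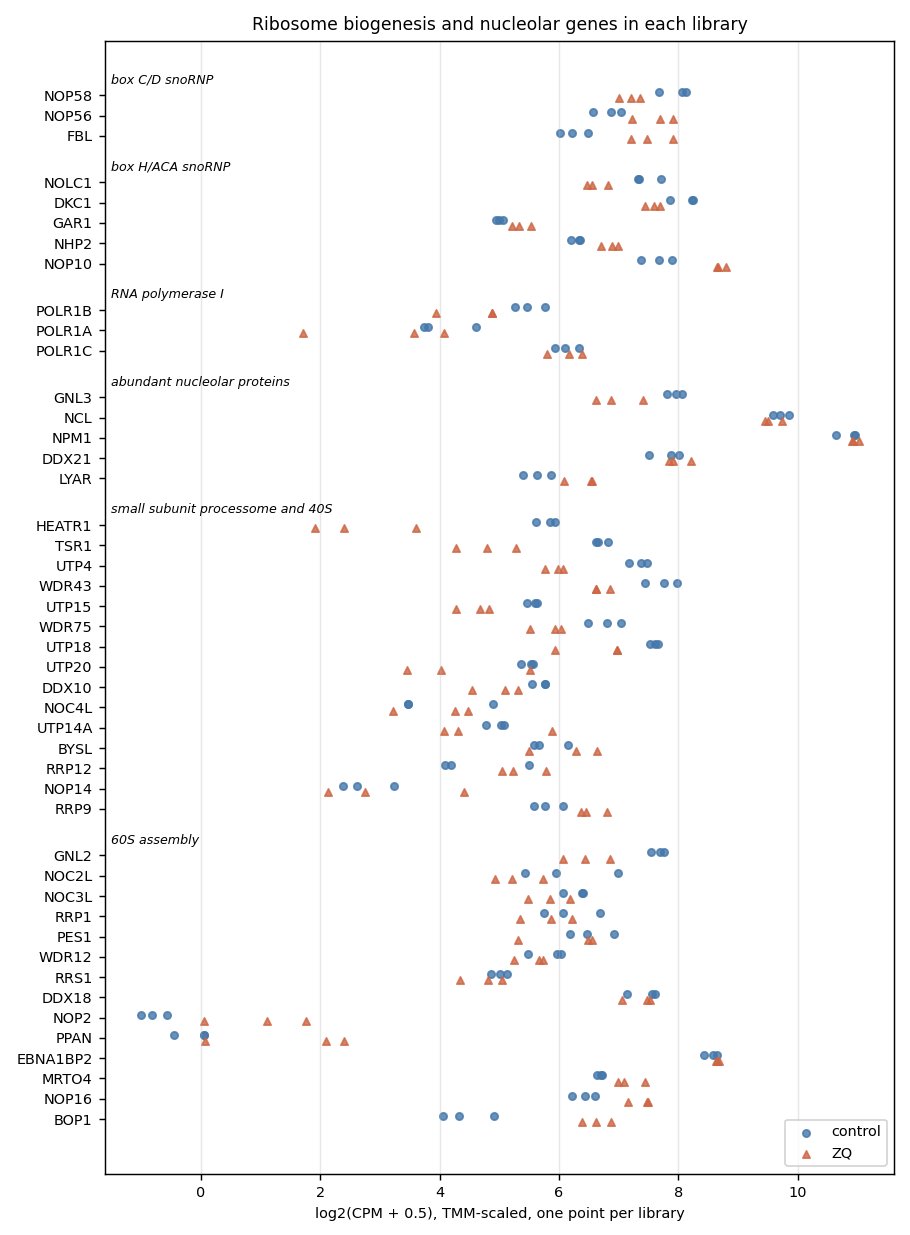
Log2 of CPM plus 0.5, after TMM scaling, in each of the 6 libraries for all 45 members, grouped by role; blue circles are control and red triangles ZQ libraries. HEATR1, TSR1 and UTP4 show the ZQ points well below the control points, BOP1, FBL and NOP10 show them above, and NPM1 and NCL show them intermixed.

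Of the 12 lower members, 7 were factors of the small subunit. Of 15 tested members of the small subunit processome and 40S pathway, 7 were lower, 1 was higher and 7 did not pass, beside 19.0% lower and 19.3% higher among all tested genes. With the offsets 3 were lower and 0 higher (also 0 higher at an unadjusted p under 0.05), beside 13.5% and 19.9% of all genes, and the median log2 change of -0.89 became 0.04. HEATR1, a large scaffold of the processome that is also needed for rRNA transcription, was measured at 60.7, 48.7 and 57.5 CPM in control and 3.26, 4.79 and 11.6 CPM in ZQ libraries. It was 8.53-fold lower with ZQ, a log2 change of -3.09 ± 0.47 (SE, n = 3 a group; edgeR quasi-likelihood adjusted p = 0.000673), and -2.45 with the offsets. This was the lowest log2 change of all tested members. HEATR1 lies at chr1:236549005-236604504 on the minus strand. Its ZQ counts came to 4.09 per kb of exon over the 3 libraries, against 1.50 for olfactory receptor genes. Its exons share 2095 of 9049 bases with LGALS8 on the opposite strand, whose counts were 868 to 1128 in control and 29 to 81 in ZQ libraries.

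TSR1, which acts late on the 40S precursor in the cytoplasm, was at 97.7, 112 and 100.2 CPM in control and 27.2, 38.3 and 18.8 CPM in ZQ libraries. It fell by 1.87 ± 0.29 on the log2 scale (SE, n = 3 a group; edgeR adjusted p = 0.000755) and had a change of -1.95 with the offsets. TSR1 lies at chr17:2322503-2337507 on the minus strand and shares 1146 of 5545 exon bases with SRR on the opposite strand. UTP4 (cirhin), a processome protein, was at 178, 144 and 166 CPM in control and 62.5, 54.1 and 66.3 CPM in ZQ libraries. It was 2.67-fold lower with ZQ, a log2 change of -1.41 ± 0.19 (SE, n = 3 a group; edgeR adjusted p = 0.000444), and -0.93 with the offsets. The ZQ libraries of HEATR1, TSR1 and UTP4 lay wholly below the control libraries, and these genes kept their calls in all 17 alternative fits.

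UTP4 and HEATR1 belong with WDR43, UTP15 and WDR75 to UTP-A, the subcomplex that joins the nascent rRNA precursor first. WDR43 was at 216, 174 and 253 CPM in control and 97.8, 97.7 and 115 CPM in ZQ libraries. UTP15 was at 43.8, 47.8 and 49.1 CPM in control and 25.0, 27.8 and 18.8 CPM in ZQ libraries. WDR75 was at 111, 89.4 and 132 CPM in control and 60.3, 45.03 and 65.2 CPM in ZQ libraries. None of the 3 overlapped between groups. They fell by 1.05 ± 0.19 (WDR43), 0.97 ± 0.31 (UTP15) and 0.96 ± 0.24 (WDR75) on the log2 scale (SE, n = 3 a group; edgeR adjusted p = 0.00182, 0.0301 and 0.0105). All 3 have a GC content near 40%, from 38.7% to 40.3%, and all 3 turned positive with the offsets, at 0.18, 0.26 and 0.45. The call of UTP15 also ended without control replicates 1 (-0.87), 2 (-0.86) or 3 (-0.78), and that of WDR75 without control replicates 1 (-0.82) or 3 (-0.67). These 5 genes were set side by side after their values were seen.

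UTP18, of the UTP-B subcomplex, was at 200.4, 184 and 194 CPM in control and 125, 60.4 and 125 CPM in ZQ libraries. It fell by 0.90 ± 0.26 on the log2 scale (SE, n = 3 a group; edgeR adjusted p = 0.0207), with -0.27 under the offsets. RRP9, a protein specific to the U3 snoRNP that guides early cleavage, was the single higher member of the small subunit group. It was at 47.5, 66.5 and 53.7 CPM in control and 82.0, 111 and 87.3 CPM in ZQ libraries, without overlap. RRP9 rose with a log2 change of 0.74 ± 0.24 (SE, n = 3 a group; edgeR adjusted p = 0.0322), which was -0.17 with the offsets. The call of UTP18 ended without control replicates 1 (-0.72), 2 (-0.83) or 3 (-0.74). That of RRP9 ended without control replicates 1 (0.80) or 3 (0.88) or ZQ replicates 1 (0.74), 2 (0.50) or 3 (0.70). RRP9 was also not called by limma-voom with group weights.

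The other 7 small subunit members did not pass, with log2 changes from -0.89 (UTP20) over -0.69 (DDX10), -0.03 (NOC4L), 0.03 (UTP14A), 0.39 (BYSL) and 0.65 (RRP12) to 0.66 (NOP14). DDX10, an RNA helicase, was the one among them whose ZQ libraries lay wholly below the control libraries, at 22.8 to 39.3 CPM against 46.3 to 54.1 CPM. Single libraries decided several values. UTP20, a large scaffold protein, was at 15.8, 45.03 and 10.5 CPM in ZQ libraries and passed without ZQ replicate 2 (-1.85), as did DDX10 (-0.96). RRP12, an export factor, was at 16.5, 44.5 and 17.7 CPM in control libraries and passed as higher without control replicate 2 (1.37).

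Among the factors of the 60S subunit the largest change was in the PeBoW complex, formed by PES1, BOP1 and WDR12, which is needed to mature the large-subunit rRNAs. BOP1 was measured at 16.05, 29.7 and 19.5 CPM in control and 98.3, 82.9 and 117 CPM in ZQ libraries. It rose 4.56-fold, a log2 change of 2.19 ± 0.31 (SE, n = 3 a group; edgeR quasi-likelihood adjusted p = 0.000476). This was the highest log2 change of all tested members. It kept its call in all 17 alternative fits, with 1.02 under the offsets, and its GC content of 65.2% was the highest of the tested members. PES1 was at 88.0, 121 and 72.1 CPM in control and 39.1, 93.9 and 89.0 CPM in ZQ libraries. WDR12 was at 65.1, 44.2 and 62.4 CPM in control and 50.5, 52.7 and 37.6 CPM in ZQ libraries. Both overlapped between groups, with log2 changes of -0.34 ± 0.33 and -0.28 ± 0.28 (SE, n = 3 a group; edgeR adjusted p = 0.452 and 0.453). The log2 ratio of PES1 to BOP1 was 2.46, 2.02 and 1.88 in control and -1.33, 0.18 and -0.40 in ZQ libraries, a mean difference of -2.64. With the offsets the fitted difference of that ratio was -1.80.

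NOP16, a nucleolar 60S factor, was at 86.3, 73.7 and 96.6 CPM in control and 179, 142 and 178 CPM in ZQ libraries, without overlap. It rose with a log2 change of 0.96 ± 0.19 (SE, n = 3 a group; edgeR adjusted p = 0.00317), which was 0.53 and not past the test with the offsets. GNL2, a GTPase that acts before export of the 60S precursor, was at 217, 187 and 205 CPM in control and 115, 86.2 and 66.3 CPM in ZQ libraries. GNL2 fell by 1.19 ± 0.22 on the log2 scale (SE, n = 3 a group; edgeR adjusted p = 0.00180), with -0.44 and no call under the offsets. Of 12 tested 60S members these were the called ones beside BOP1, 1 lower and 2 higher in all. Among all tested genes 19.0% were lower and 19.3% higher. The 60S members had a median log2 change of -0.26, which was 0.33 with the offsets. NOP16 shares 344 exon bases with ARL10 and 227 with HIGD2A on the opposite strand.

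The remaining 60S members did not pass, with log2 changes from -0.96 (NOC2L) over -0.43 (NOC3L), -0.37 (RRP1), -0.24 (RRS1), -0.08 (DDX18) and 0.10 (EBNA1BP2) to 0.50 (MRTO4). MRTO4, a relative of the ribosomal stalk protein, was at 99.3 to 104 CPM in control and 127 to 173 CPM in ZQ libraries, without overlap (edgeR adjusted p = 0.0596). With the offsets 4 of these genes were called: NOC2L (-1.49) and RRP1 (-1.05) as lower, NOC3L (1.04) and DDX18 (1.18) as higher. The yeast counterparts of NOC2L and NOC3L form a complex that travels with the 60S precursor. EBNA1BP2, a 60S factor that binds a viral nuclear antigen, was at 342 to 398 CPM in control and 395 to 411 CPM in ZQ libraries.

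The other 2 members were too low to test. NOP2, a methyltransferase of the large-subunit rRNA, had 1, 3 and 0 counts in control and 1, 6 and 3 counts in ZQ libraries. Its exons share 2550 of 4687 bases with AC006064.6 on the same strand, a gene listed at 0 in all 6 libraries. PPAN, a 60S factor, had 8, 4 and 7 counts in control and 7, 10 and 1 counts in ZQ libraries, and it shares 1447 of 2583 exon bases with the read-through gene PPAN-P2RY11. How reads in shared bases were counted is not known here, so these counts do not give the level of either gene. Without ZQ replicate 3, PPAN entered the test and was called higher (3.19).

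Among the members, transcript length and GC content went with the direction of change. Over the 43 tested members the log2 change had a Spearman correlation of 0.48 with GC content and -0.58 with the length of the longest transcript, given as a description because members share the libraries. Over 11514 tested protein-coding genes the same values were 0.50 and -0.12. The 22 members with transcripts of 554 to 2701 bases had a median log2 change of 0.23, with 5 lower and 8 higher. The 21 longer members had a median of -0.69, with 7 lower and 0 higher. Among all tested genes of any length 19.0% were lower and 19.3% higher, and shares among genes of like length were not computed. No longer member was higher at an unadjusted p under 0.05 in edgeR, or called higher by DESeq2 or limma-voom. With the offsets, which were fitted to all tested protein-coding genes, the correlations over the members were -0.34 with GC content and -0.25 with length. Over the protein-coding genes they were then -0.040 and -0.015. The offsets thus flattened the GC trend over those genes but turned it negative over the members. The shorter members then gave 0 lower and 4 higher, and the long members 5 lower and 3 higher, beside 13.5% and 19.9% of all genes.

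**Figure D4:**
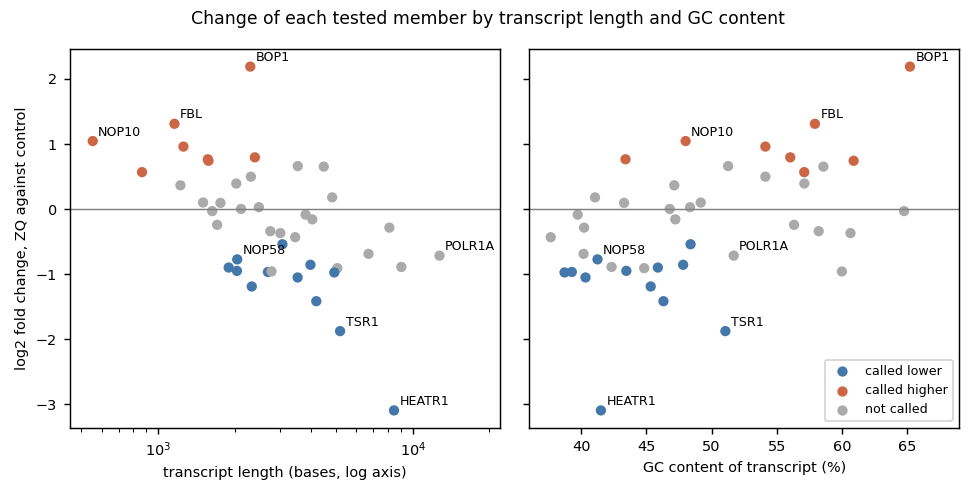
Log2 fold change of each tested member against its transcript length (log axis) and its GC content; each point is a gene, coloured by its edgeR call without offsets. The short NOP10 and the GC-rich BOP1 lie high, and long members such as HEATR1 lie low.

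As a share of all counts the members took 0.834%, 0.798% and 0.816% of control libraries and 0.629%, 0.555% and 0.587% of ZQ libraries. Their mean share was 0.816% ± 0.0177 (SD, n = 3) for control and 0.590% ± 0.0372 (SD, n = 3) for ZQ, without overlap. The direction turned when mitochondrial genes were left out of the total, with 0.8945% ± 0.0314 (SD, n = 3) for control and 0.976% ± 0.0433 (SD, n = 3) for ZQ. NPM1 and NCL together made 37.95% ± 0.694 (SD, n = 3) of member counts for control and 40.3% ± 1.12 (SD, n = 3) for ZQ.

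The rest of the pathway was described with 128 further genes of ribosome biogenesis, of which 126 were tested. With ZQ, 30 were lower and 19 higher (38.9% called, against 38.3% of all tested genes), with a median log2 change of -0.24. With the offsets 20 were lower and 27 higher, beside 13.5% and 19.9% of all tested genes. Of the 13 genes of the RNA polymerase I machinery 2 were lower and 4 higher, of 10 snoRNP assembly factors 0 and 2 (1 lower at an unadjusted p under 0.05, 0 by DESeq2 and by limma-voom), and of 42 further small subunit genes 9 and 5. Of 46 further 60S genes 13 were lower and 6 higher, and of 15 exosome and nuclease genes 6 and 2.

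RRN3, the initiation factor that brings RNA polymerase I to the rRNA gene promoter, had 670, 520 and 429 counts in control and 3, 2 and 1 counts in ZQ libraries. Its log2 change was -5.09 ± 0.55 (SE, n = 3 a group; edgeR adjusted p = 0.000111), and -4.02 with the offsets. Its ZQ counts came to 1.44 per kb of exon, near the 1.50 of olfactory receptor genes. EXOSC10, the exonuclease of the nuclear exosome, fell from 199 ± 23.3 to 45.3 ± 3.98 CPM (SD, n = 3 each; edgeR adjusted p = 4.2e-05). The other falls with the smallest adjusted p were TEX10 (-2.12), the exosome helicase MTREX (-1.86), the 60S export adaptor NMD3 (-1.61) and the 60S factor ZNF622 (-1.24). RRN3, EXOSC10, TEX10 and ZNF622 were also lower with the offsets, while MTREX (-0.63) and NMD3 (-0.20) were not called there. The rises with the smallest adjusted p were EIF6, which keeps the subunits apart (0.84), PELP1 (1.94), RRP36 (1.43), ESF1 (1.24), TSR3 (2.17) and the exosome subunit EXOSC1 (1.17). EIF6 (0.06) and TSR3 (0.44) were not called with the offsets, and the other 4 were higher there too. PELP1 and TEX10, which work in a common 60S assembly complex, were thus called in opposite directions.

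Cytosolic ribosomal protein genes, the partners of these factors in the finished subunits, were nearly all higher. Of 76 tested, 74 were higher and 0 lower, beside 19.3% and 19.0% of all tested genes, with a median log2 change of 1.33. The count of lower genes was also 0 at an unadjusted p under 0.05, with DESeq2 and with limma-voom. With the offsets 64 were higher and 3 (RPL8, RPL36 and RPS15) lower, beside 19.9% and 13.5% of all tested genes. They took 3.66% ± 0.00832 (SD, n = 3) of non-mitochondrial counts for control and 9.79% ± 0.361 (SD, n = 3) for ZQ. The difference between the ribosomal proteins and the members was not tested, and the transcripts of the ribosomal proteins are shorter, with a median of 1148 bases against 2701.

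The promoters of 3 members are shown because these genes were called in the same direction in all 17 alternative fits and differ in a sequence motif. CACGTG is the E-box that MYC and its partner MAX bind in many growth genes. It reads the same on both strands, so one search covers both. It was searched in the 250 bases before the start of each gene in RefSeq (GRCh38.p14), where 39 of the 45 members had a sequence. TSR1 and BOP1 also kept their calls in all 17 fits and are not shown. TSR1 does not have CACGTG in this window, and BOP1 had no sequence. Capitals mark CACGTG, and each sequence is given on the strand of its gene. The regions are chr15:34343137-34343386 (minus strand) for NOP10, chr16:69132399-69132648 (plus strand) for UTP4 and chr1:236604517-236604766 (minus strand) for HEATR1.
NOP10: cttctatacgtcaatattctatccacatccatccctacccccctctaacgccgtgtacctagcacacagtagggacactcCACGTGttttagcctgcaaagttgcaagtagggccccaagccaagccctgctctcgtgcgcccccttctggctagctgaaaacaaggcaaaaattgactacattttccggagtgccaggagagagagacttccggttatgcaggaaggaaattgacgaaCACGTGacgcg
UTP4: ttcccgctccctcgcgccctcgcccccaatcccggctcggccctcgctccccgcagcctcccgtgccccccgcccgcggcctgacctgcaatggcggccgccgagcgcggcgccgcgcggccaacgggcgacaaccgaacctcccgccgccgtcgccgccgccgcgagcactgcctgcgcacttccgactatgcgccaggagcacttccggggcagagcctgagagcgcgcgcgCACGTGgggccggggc
HEATR1: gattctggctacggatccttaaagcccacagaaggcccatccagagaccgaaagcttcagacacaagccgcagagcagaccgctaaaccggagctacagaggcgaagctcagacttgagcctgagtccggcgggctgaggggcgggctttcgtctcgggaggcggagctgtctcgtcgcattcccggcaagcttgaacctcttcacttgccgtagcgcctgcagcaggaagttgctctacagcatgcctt

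NOP10, which rose, holds the motif at 170 and 11 bases before its RefSeq start. UTP4, which fell, holds it 16 bases before its RefSeq start, and HEATR1, which also fell, does not have these letters in this window. The RefSeq starts differ from the GENCODE coordinates used elsewhere. By those, NOP10 reaches to 34343177, so its window and the nearer motif overlap the gene. UTP4 starts at 69131291 there, so its whole window lies inside the gene. Windows of some other members also overlap their genes. The motif was present in 6 of the 39 members (15.4%), which were EBNA1BP2, UTP20, NOP10, UTP4, UTP18 and UTP14A, against 1201 of 15306 coding promoters (7.85%). Among members with a sequence it was in 2 of the 10 lower and 1 of the 7 higher genes. A match is a description of these letters and does not show that a factor bound there. The median GC content of these windows was 64.8% in the members and 62.4% in all coding genes.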

How the data were processed

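Per the labels' protocols, RNA came from TRIzol extraction with a DNase I step, and an NEBNext Ultra kit made the libraries. The authors deposited a table of raw counts (no normalisation) for 3 control and 3 ZQ libraries. Per the submitters' processing notes, Cufflinks 2.1.1 and the build GRCh38 were used, the former with no role named. Not given in the sources used here: aligner, counter, annotation and strand setting. Overlapping genes therefore cannot be told apart.

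Counts were tested with edgeR 4.0.16 in R 4.3.3: filterByExpr (minimum count 10, minimum total 15), TMM, quasi-likelihood F-test, Benjamini-Hochberg adjustment, threshold 0.05. A standard error is the log2 fold change divided by the square root of F. Offsets for GC content and length (longest GENCODE release 29 transcript) were smooth curves per library (mgcv 1.9.3). Alternatives were DESeq2 1.42.0, voom in limma 3.58.1, different scalings, different filters, leaving out single libraries and a replicate block. In a library, 3 counts equal 0.204 to 0.257 CPM (control) or 1.22 to 1.45 CPM (ZQ) before TMM. The fit was tested on simulated data drawn with the same spread in both groups, unlike the real libraries. That simulation cannot show how the fit behaves where the spread is unequal. The members, lists, offsets and alternatives were chosen with earlier results of these data known. Values per library are given for members of the named particles and for the 8 lowest and 8 highest called members, and UTP18 and the other low or divided values were added after they were seen. Of the related genes, the 6 smallest adjusted p in each direction are named.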

Additional observations from a re-analysis of the deposited data

How the results depend on the processing

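Leaving out 1 library at a time moved the number of genes past the threshold from 4978 to between 2794 and 5407, and no low-count filter gave 11603. The 12 lower members became 5 to 14 without 1 library, and 5 with upper-quartile scaling, with the offsets and with both block and offsets. They became 8 with limma-voom, whose weights allow the groups to differ in spread. The 8 higher members became 4 to 8 without 1 library, 13 with upper-quartile scaling, 4 with library totals, 4 with no filter and 5 with limma-voom. The 30 lower related genes became 11 to 31 without 1 library, 13 with upper-quartile scaling, 49 with library totals, 19 at 5 CPM or more and 16 with block and offsets, and the 19 higher ones 29, 7 and 11 with upper-quartile scaling, library totals and no filter. The members' median of -0.24 ranged from -0.37 to -0.011 without 1 library, and was 0.21 with upper-quartile scaling, -0.65 with library totals, -0.47 with no filter, 0.26 with the offsets and 0.23 with block and offsets. The share difference of -0.226 percentage points became 0.0819 without mitochondrial genes. With the offsets the partner differences were 0.14 (NOP56/NOP58), -0.68 (DKC1/NOP10), -1.80 (PES1/BOP1) and -1.17 (POLR1A/POLR1B), and POLR1A/POLR1B ranged from -0.88 to 0.87 without 1 library. The cause of these shifts was not tested.

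Same-numbered control and ZQ libraries deviated with correlations of 0.00944, 0.0371 and 0.0316, each above that with other numbers but too low to pair the libraries. A replicate block gave 11 lower and 7 higher members.

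Of 731 member values under the alternatives, 556 kept direction and side of the threshold, 75 lost and 33 gained a call, and 67 changed sign, 17 of them with a call in either fit. Log2 changes with the opposite sign follow. With the GC and length offsets they were NOP58 0.42, NHP2 -0.44, NCL 0.26, RRP9 -0.17, UTP15 0.26, WDR43 0.18, WDR75 0.45, DDX10 0.26, WDR12 0.55, NOC3L 1.04 and DDX18 1.18. With the replicate block and the offsets together they were NOP58 0.41, NHP2 -0.44, NCL 0.25, RRP9 -0.17, UTP15 0.25, WDR43 0.19, WDR75 0.44, DDX10 0.23, BYSL -0.039, WDR12 0.54, NOC3L 1.02, DDX18 1.17. With library totals they were GAR1 -0.038, POLR1C -0.39, NPM1 -0.30, DDX21 -0.22, UTP14A -0.36, BYSL -0.0075, EBNA1BP2 -0.30. With TMM computed without mitochondrial genes it was POLR1C -0.0023. With no low-count filter they were POLR1C -0.31, NPM1 -0.22, DDX21 -0.13, UTP14A -0.28, EBNA1BP2 -0.21. With the replicate block they were POLR1C -0.0066, NOC4L 0.045, UTP14A -0.20. With upper-quartile scaling they were NCL 0.29, NOC4L 0.43, WDR12 0.16, PES1 0.11, RRP1 0.083, RRS1 0.21, NOC3L 0.010, DDX18 0.36. With a mean of at least 5 CPM required they were NCL 0.014, NOC4L 0.14, DDX18 0.087. With RLE scaling it was NOC4L 0.081. With DESeq2 it was NOC4L 0.081. With limma-voom and group weights they were NOC4L 0.020, UTP14A -0.20. Without 1 library the ranges were POLR1C -0.23 to 0.27, NCL -0.34 to 0.017, NPM1 -0.032 to 0.30, DDX21 -0.032 to 0.45, NOP14 -0.44 to 1.08, NOC4L -0.37 to 0.74, UTP14A -0.88 to 0.25, RRP1 -0.69 to 0.040, DDX18 -0.26 to 0.15, EBNA1BP2 -0.012 to 0.30. Depth limits ZQ libraries: 3 counts are 1.22 to 1.45 CPM there.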
